A study of Homo sapiens with 36 samples.

Results

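The genes described here code for proteins of the nuclear lamina, the inner nuclear membrane and the high mobility group (HMG) chromatin proteins, a set whose levels are commonly followed in senescent cells. They are 10 protein-coding genes, matched by symbol to 1 Ensembl identifier each, of the 19942 protein-coding genes in the count tables. All 10 passed the filter on low counts, as did 15415 protein-coding genes in total. The lamins are LMNA (ENSG00000160789.24, chromosome 1, 156082573 to 156140081), LMNB1 (ENSG00000113368.12, chromosome 5, 126776623 to 126837020) and LMNB2 (ENSG00000176619.13, chromosome 19, 2427638 to 2456959). The membrane and lamina-associated proteins are LBR (ENSG00000143815.15, chromosome 1, 225401502 to 225428925), TMPO (ENSG00000120802.14, chromosome 12, 98515579 to 98550351) and EMD (ENSG00000102119.12, chromosome X, 154379273 to 154381574). The chromatin proteins are HMGB1 (ENSG00000189403.15, chromosome 13, 30456704 to 30617597), HMGB2 (ENSG00000164104.12, chromosome 4, 173331376 to 173334432), HMGA1 (ENSG00000137309.20, chromosome 6, 34236873 to 34246231) and HMGA2 (ENSG00000149948.14, chromosome 12, 65824460 to 65966291). Positions are on GRCh38.

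Polyadenylated RNA was sequenced from HCT116, a human colorectal cancer cell line, in 36 libraries: 4 lines, each on days 2, 6 and 8 of degradation, with 3 libraries per line and day. The lines were UHRF1-AID/DNMT1-AID, in which both proteins carry an auxin-inducible degron tag, UHRF1-AID, DNMT1-AID, and WT, which carries no tagged protein. DNMT1 copies DNA methylation onto new strands at replication, and UHRF1 recruits it. The parental line makes the plant adaptor OsTIR1 when doxycycline is given, and auxin then drives degradation of a tagged protein. Every line, WT included, received 2 µg/mL doxycycline with 20 µM auxinole for the day before degradation began, then 2 µg/mL doxycycline with 500 µM auxin, so a difference from WT is not a difference between treated and untreated cells. The study describes the 3 libraries of a group as biological replicates. The labels do not name the clone behind each line or say whether the libraries came from separate cultures, and the p-values measure only the spread between these libraries. Days 0 and 4 were not analysed here.

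The nuclear lamina is a meshwork under the inner nuclear membrane, built from A-type lamins (LMNA) and B-type lamins (LMNB1, LMNB2), and it anchors heterochromatin at the nuclear edge. LBR, the lamin B receptor, and the LAP2 proteins from TMPO link B-type lamins to chromatin, and emerin (EMD) binds A-type lamins. HMGB proteins bend DNA and HMGA proteins bind AT-rich DNA. In senescent fibroblasts, loss of LMNB1, LBR and HMGB2 and release of HMGB1 from the nucleus are known, and HMGA proteins are known as parts of senescence-associated heterochromatin foci. HMGA2 is better known in embryonic and tumour cells as a growth-associated gene under the control of let-7 microRNAs.

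Libraries held 21074536 to 37175136 reads in genes (median 25031562.5), and each of the 10 genes had at least 514 reads in every library. Levels are given as CPM, the usual depth-normalised read count, here taken over protein-coding reads after scaling for library composition. Of the targets, DNMT1 mRNA on day 8 was 44.1 ± 10.6 CPM in UHRF1-AID/DNMT1-AID, 151 ± 25.8 CPM in UHRF1-AID, 64 ± 5.59 CPM in DNMT1-AID and 199 ± 10.1 CPM in WT (SD, n = 3 each). UHRF1 mRNA on day 8 was 60.7 ± 19 CPM in UHRF1-AID/DNMT1-AID, 119 ± 27.6 CPM in UHRF1-AID, 121 ± 2.53 CPM in DNMT1-AID and 149 ± 1.83 CPM in WT. The degron acts on the protein, so neither mRNA measures the degradation. DNMT1 mRNA in both lines with tagged DNMT1 nevertheless lay below the other lines in every library of each day. It was at most 19.2 CPM, against at least 23.4 CPM, on day 2. The same limits were 94.1 and 210 CPM on day 6 and 70.1 and 121 CPM on day 8. The reason was not tested, and UHRF1 mRNA on day 8 overlapped between UHRF1-AID and DNMT1-AID. Epithelial markers differed in level over the 36 libraries. KRT8 (1380 to 4770 CPM), KRT19 (988 to 3480 CPM), KRT18 (537 to 2260 CPM) and EPCAM (215 to 499 CPM) were the highest. CLDN7 (102 to 554 CPM) and CDH1 (56.8 to 230 CPM) followed. CDX2 (17.9 to 154 CPM) and VIL1 (7.89 to 17.2 CPM) were lower, and CDX1 was listed at 0 in 11 libraries. Of 12 markers of other cell types, 9 stayed under 3 CPM in every library, and COL1A1 (2.04 to 82.2 CPM), GFAP (1.35 to 4.62 CPM) and MYH11 (2.21 to 15.8 CPM) did not. Mitochondrial transcripts took a larger share of reads on day 8 in every degron line: 7.72 to 10.8% in UHRF1-AID/DNMT1-AID, 4.68 to 7.41% in UHRF1-AID and 4.79 to 7.93% in DNMT1-AID, against 2.87 to 3.73% in WT. Their part in the differences below was not tested. In bulk RNA a lower level in every cell and a smaller share of cells expressing a gene cannot be told apart.

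By day 8, 8 of the 10 genes had fallen in each of the 3 degron lines relative to WT: LMNB1, LMNB2, LBR, TMPO, HMGB1, HMGB2, HMGA1 and HMGA2. LMNA rose only in DNMT1-AID among the day 8 comparisons, and EMD passed the test in none. In UHRF1-AID/DNMT1-AID, 6 of the 10 changed by more than 2-fold (LMNB1, LMNB2, LBR, TMPO, HMGA1 and HMGA2). The share of all genes beyond 2-fold was not counted, so that number has no background beside it. A gene was counted as changed at an adjusted p under 0.05 (edgeR's quasi-likelihood test, Benjamini-Hochberg over the 15415 genes), whatever its fold. The background on day 8 was high: in UHRF1-AID/DNMT1-AID 32.8% of all genes tested were lower and 35.7% higher than in WT, in UHRF1-AID 21% lower and 24.2% higher, and in DNMT1-AID 22.4% lower and 25.1% higher. The median log2 fold change of the 10 genes against WT was -1.32 in UHRF1-AID/DNMT1-AID, -0.77 in UHRF1-AID and -0.55 in DNMT1-AID, beside medians over all genes of 0.03, 0.04 and 0.02 in the same order of lines.

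Earlier days showed fewer changes, mostly in the double degron line. On day 2, UHRF1-AID/DNMT1-AID had 6 genes lower and 0 higher (background 11.5% lower, 16.3% higher), UHRF1-AID had 2 lower and 0 higher (14.4% and 12.1%), and DNMT1-AID had 0 in either direction (0.714% lower and 2.67% higher). The single-line count of 2 lower is close to its background. For DNMT1-AID on day 2, 3 of the 10 genes lay lower and 1 higher at an unadjusted p under 0.05 in edgeR, and 1 gene passed with DESeq2. The backgrounds given here are at an adjusted p, and the share of all genes at the unadjusted threshold was not counted. On day 6, UHRF1-AID/DNMT1-AID had 7 lower and 0 higher (21.9% and 19%), UHRF1-AID had 3 lower and 0 higher (10.5% and 14.3%), and DNMT1-AID had 1 lower and 1 higher (4.35% and 8.84%). Medians of the 10 genes were -0.37, -0.21 and -0.14 on day 2 and -0.34, -0.16 and -0.04 on day 6, for UHRF1-AID/DNMT1-AID, UHRF1-AID and DNMT1-AID in turn. The 9 comparisons share their WT libraries within a day and are not independent of each other.

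**Figure D1:**
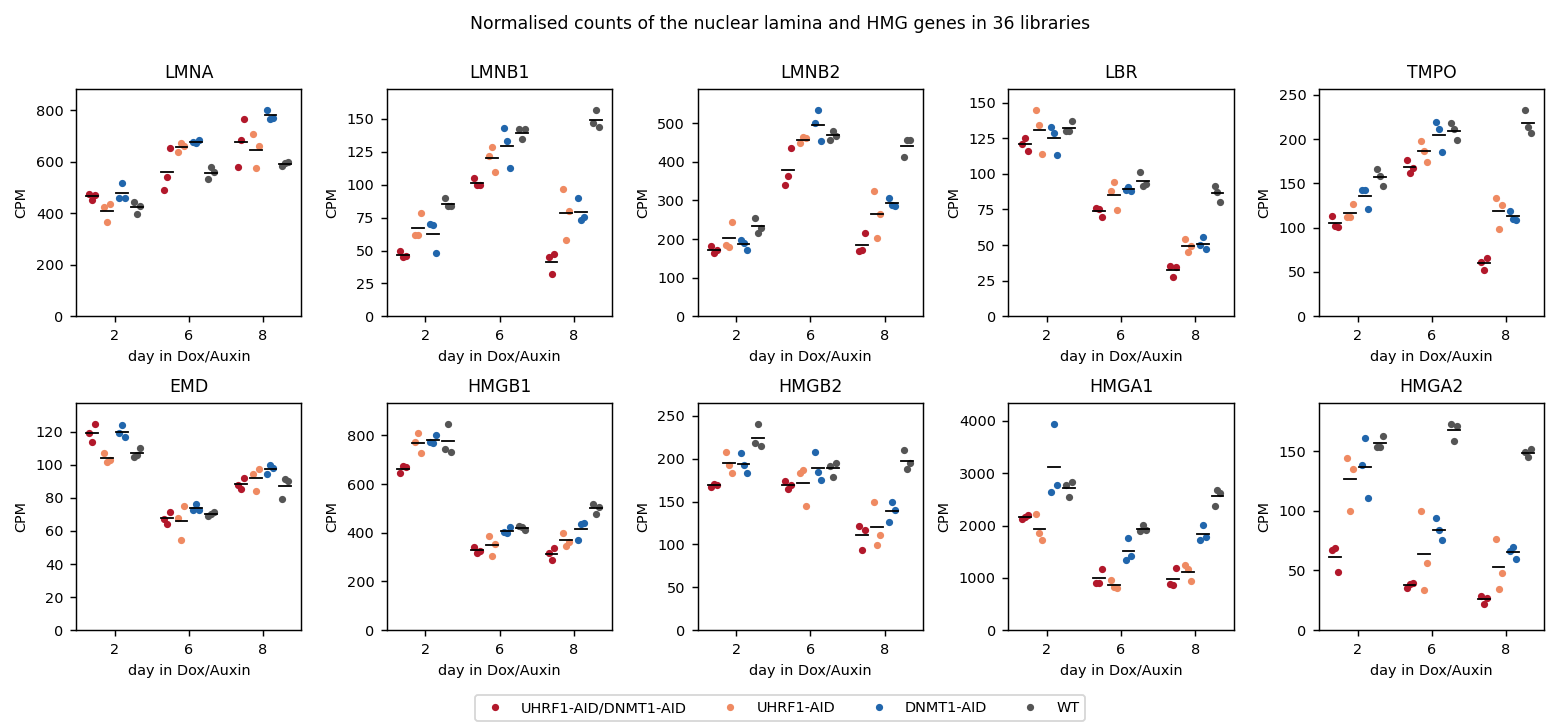
Levels of the 10 genes (CPM, y axis) in every library against day in Dox/Auxin (x axis), 1 panel per gene. Points are libraries coloured by line (UHRF1-AID/DNMT1-AID red, UHRF1-AID orange, DNMT1-AID blue, WT grey) and bars are means of 3. On day 8, LMNB1, LMNB2, LBR, TMPO, HMGB1, HMGB2, HMGA1 and HMGA2 lay below every WT library in all 3 degron lines. How many of all genes lay apart from WT in this way was not counted.

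**Figure D2:**
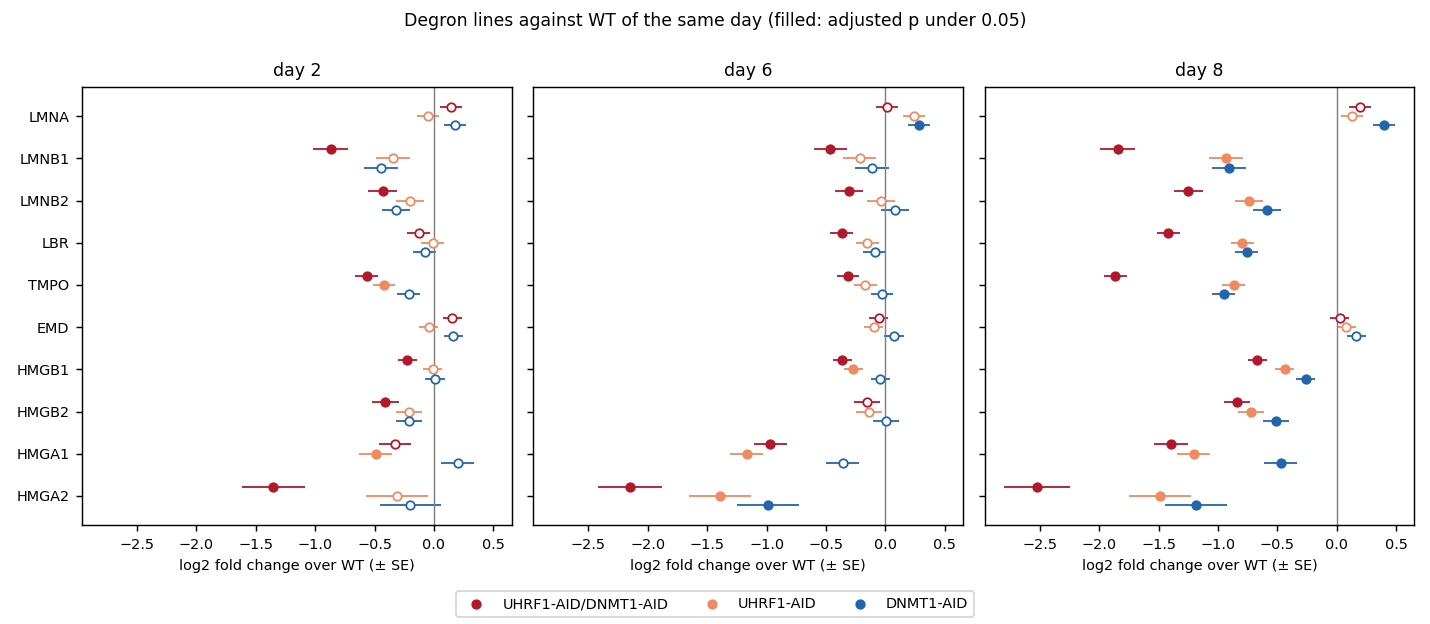
Log2 fold change of each gene over WT of the same day (x axis, bars are ± 1 SE), 1 panel per day, coloured by line. Filled points passed at an adjusted p under 0.05. The 8 genes that fell in all lines on day 8 lie to the left of 0, with HMGA2 farthest at -2.52 in UHRF1-AID/DNMT1-AID.

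Among the lamins, both B-type genes fell in all 3 degron lines by day 8. LMNB1, whose loss is a widely used marker of senescence, had 45.2, 32.4 and 47.1 CPM in UHRF1-AID/DNMT1-AID on day 8, against 147, 157 and 144 CPM in WT. UHRF1-AID had 97.1, 57.7 and 79.9 CPM and DNMT1-AID 90, 73.3 and 75.3 CPM on that day. No degron library reached the lowest WT library, and the double degron line lay below both single lines. The log2 fold change over WT was -1.84 ± 0.15 (SE) in UHRF1-AID/DNMT1-AID (edgeR adjusted p = 3.09e-12), -0.93 in UHRF1-AID (adjusted p = 3.72e-06) and -0.91 in DNMT1-AID (adjusted p = 5.78e-06).

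The fall of LMNB1 was not a steady decline in its level. On day 2 UHRF1-AID/DNMT1-AID had 49.4, 45.3 and 45.9 CPM, against 89.7, 83.5 and 83.8 CPM in WT (log2 fold change -0.87 ± 0.15, edgeR adjusted p = 4.58e-05). On day 6 it had 105, 99.7 and 100 CPM, against 142, 135 and 142 CPM in WT (log2 fold change -0.46 ± 0.14, edgeR adjusted p = 0.00931). The groups did not overlap on either day, and the difference from WT was smaller on day 6 than on days 2 and 8, although that curve over 3 days was not itself tested. In UHRF1-AID on day 2 (61.7, 62 and 78.2 CPM) and DNMT1-AID on day 2 (70.5, 69.5 and 48.5 CPM), LMNB1 lay below the WT libraries without passing the test (edgeR adjusted p = 0.0748 and 0.0839). Both passed with DESeq2 (adjusted p = 0.0334 and 0.0401) and with only the libraries compared in edgeR (adjusted p = 0.0397 and 0.0494).

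LMNB2, the other B-type lamin gene, had 170, 172 and 215 CPM in UHRF1-AID/DNMT1-AID on day 8, against 412, 457 and 456 CPM in WT. UHRF1-AID had 324, 204 and 266 CPM and DNMT1-AID 306, 289 and 286 CPM. Every degron library again lay below WT. The log2 fold change was -1.25 ± 0.12 in UHRF1-AID/DNMT1-AID (edgeR adjusted p = 6.45e-11), -0.74 in UHRF1-AID and -0.59 in DNMT1-AID. In the double degron line LMNB2 was also lower on day 2 (log2 fold change -0.43) and day 6 (-0.30). The first call was lost without WT day 2 replicate 1 (edgeR adjusted p = 0.0501), and the second without replicate 1 or 2 of UHRF1-AID/DNMT1-AID or without any 1 of the 3 WT libraries of day 6 (adjusted p up to 0.179). The call on day 6 was also lost with DESeq2 (-0.26, adjusted p = 0.0897) and with DESeq2 size factors, all annotated genes or library size only in edgeR (adjusted p = 0.0922, 0.0729 and 0.105).

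LMNA, which codes for lamins A and C, did not share the fall. It had 580, 686 and 765 CPM in UHRF1-AID/DNMT1-AID on day 8, 707, 574 and 662 CPM in UHRF1-AID, 802, 768 and 771 CPM in DNMT1-AID, and 585, 595 and 598 CPM in WT. DNMT1-AID alone lay wholly above WT, with a log2 fold change of 0.40 ± 0.092 (edgeR adjusted p = 0.00061), while the other lines overlapped WT (0.19, adjusted p = 0.0631 in UHRF1-AID/DNMT1-AID; 0.13, adjusted p = 0.263 in UHRF1-AID). DESeq2 did count LMNA as higher in UHRF1-AID/DNMT1-AID (0.25, adjusted p = 0.0153). On day 6 LMNA was higher in DNMT1-AID as well (675, 673 and 686 CPM, against 533, 579 and 559 CPM in WT, log2 fold change 0.28, edgeR adjusted p = 0.0355). That call was lost when any of 6 libraries was left out, and with a correction for GC content and length (0.21, adjusted p = 0.108). UHRF1-AID on day 6 also lay wholly above WT for LMNA (637 to 672 CPM, against 533 to 579 CPM). Its log2 fold change of 0.24 did not pass in edgeR with all libraries. LMNA passed there with DESeq2 (adjusted p = 0.0435) and with only the libraries compared in edgeR (adjusted p = 0.0322). With the correction for GC content and length it did not pass (0.12, edgeR adjusted p = 0.33).

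The 250 bases before the first annotated start of LMNB1 and of LMNA are shown as those of a B-type and an A-type lamin gene. Both are from RefSeq on GRCh38.p14, plus strand, 5′ to 3′, at chr5:126776373-126776622 and chr1:156082323-156082572, and capitals mark motif matches.
LMNB1: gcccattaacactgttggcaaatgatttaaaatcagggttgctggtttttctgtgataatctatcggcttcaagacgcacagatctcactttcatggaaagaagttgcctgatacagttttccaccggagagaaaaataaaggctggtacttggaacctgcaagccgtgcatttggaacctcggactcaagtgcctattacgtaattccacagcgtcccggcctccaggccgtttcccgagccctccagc
LMNA: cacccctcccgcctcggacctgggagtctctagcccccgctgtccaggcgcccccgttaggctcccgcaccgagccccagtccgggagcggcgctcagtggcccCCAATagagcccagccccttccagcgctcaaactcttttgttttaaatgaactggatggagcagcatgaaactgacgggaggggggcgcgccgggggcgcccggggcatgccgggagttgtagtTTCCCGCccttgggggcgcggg
Motifs were searched on both strands: CCAAT (present in 32% of 35116 promoters of the same length), the E2F motif GCGGGAA or GCGCCAAA (6%) and the cell cycle homology region TTTGAA (13.3%). The LMNB1 window held none of the 3, and the LMNA window held 1 CCAAT and 1 E2F match, neither of which is shown to be a bound site. This holds for the first start only: the window of the second LMNB1 start held 1 CCAAT and 29 CpG dinucleotides, and those of the other LMNA starts held none of the 3 motifs. At the first start the LMNB1 window held 10 CpG dinucleotides and the LMNA window 21, beside a median of 11 over all promoters. Of the 10 genes, 8 had a promoter in the table.

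LBR, the sterol reductase and lamin B receptor that tethers heterochromatin to the lamina, fell late. On day 8 it had 35.3, 27.4 and 34.3 CPM in UHRF1-AID/DNMT1-AID, 54.6, 44.8 and 49.6 CPM in UHRF1-AID and 50.2, 55.6 and 47.2 CPM in DNMT1-AID, against 91.6, 87 and 80.5 CPM in WT. The single lines overlapped each other, and the double degron line lay below both. Over WT this was a log2 fold change of -1.42 ± 0.099 in UHRF1-AID/DNMT1-AID (edgeR adjusted p = 2.42e-14), -0.80 in UHRF1-AID (adjusted p = 3.21e-08) and -0.76 in DNMT1-AID (adjusted p = 9.95e-08). On day 2 no line passed (log2 fold changes of -0.13, -0.01 and -0.08), and on day 6 LBR fell in UHRF1-AID/DNMT1-AID, with 76.2, 75 and 69.7 CPM, against 101, 91.2 and 92.9 CPM in WT (log2 fold change -0.37, edgeR adjusted p = 0.00232).

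TMPO, which codes for the LAP2 proteins, had the smallest adjusted p of the 10 genes on day 8 in UHRF1-AID/DNMT1-AID. It had 61.6, 52.2 and 65.7 CPM in UHRF1-AID/DNMT1-AID, 134, 99 and 125 CPM in UHRF1-AID and 119, 110 and 109 CPM in DNMT1-AID, against 233, 213 and 207 CPM in WT. The libraries of the double degron line lay below all others, and those of the single lines overlapped. Relative to WT, the log2 fold change was -1.86 ± 0.098 in UHRF1-AID/DNMT1-AID (edgeR adjusted p = 2.2e-17), -0.87 in UHRF1-AID and -0.95 in DNMT1-AID. TMPO was the 1 gene lower on day 2 in both UHRF1-AID/DNMT1-AID (113, 102 and 101 CPM) and UHRF1-AID (112, 112 and 127 CPM), against 166, 158 and 147 CPM in WT (log2 fold changes of -0.57 and -0.42, edgeR adjusted p = 2.89e-05 and 0.000969). On day 6 the fall in UHRF1-AID/DNMT1-AID was -0.31, and it was lost with the correction for GC content and length (-0.09, edgeR adjusted p = 0.457). The antisense gene TMPO-AS1 shares 646 exonic bases with TMPO on the opposite strand and took 10.5 ± 2.57 CPM in UHRF1-AID/DNMT1-AID on day 8, against 60.9 ± 0.451 CPM in WT. The strand setting of the counting is not given in the sources used here, so reads from the shared bases cannot be told apart.

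The window before the first start of TMPO (chr12:98515323-98515572, plus strand, RefSeq, GRCh38.p14) is shown as that of the gene with the smallest adjusted p on day 8, with CCAAT matches in capitals.
TMPO: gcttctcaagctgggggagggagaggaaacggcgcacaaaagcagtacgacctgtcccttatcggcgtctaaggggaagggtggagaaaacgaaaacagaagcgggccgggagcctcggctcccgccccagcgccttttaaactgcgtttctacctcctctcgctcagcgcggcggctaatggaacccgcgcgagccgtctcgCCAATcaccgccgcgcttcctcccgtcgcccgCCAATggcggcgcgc
It held 2 CCAAT matches, 30 CpG dinucleotides and neither of the other motifs searched.

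EMD, emerin of the inner nuclear membrane, stayed near WT. On day 8 it had 87.9, 85.7 and 92.1 CPM in UHRF1-AID/DNMT1-AID, 94.4, 84.1 and 97.4 CPM in UHRF1-AID and 94.3, 100 and 98.3 CPM in DNMT1-AID, against 79.3, 91.4 and 90.5 CPM in WT. Only DNMT1-AID lay wholly above WT, and the other lines overlapped it. Its log2 fold changes were 0.02 ± 0.08, 0.08 and 0.16 (edgeR adjusted p = 0.797, 0.44 and 0.0904). With the correction for GC content and length EMD turned lower in all 3 lines, by -0.61 in UHRF1-AID/DNMT1-AID (adjusted p = 1.8e-07), -0.25 in UHRF1-AID (adjusted p = 0.0187) and -0.32 in DNMT1-AID (adjusted p = 0.00284), so its direction depends on that choice.

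The HMGB genes had smaller log2 fold changes in UHRF1-AID/DNMT1-AID on day 8 than the B-type lamins, a difference between genes that was not tested. HMGB1, the most abundant HMG-box protein of most nuclei, had 317, 289 and 338 CPM in UHRF1-AID/DNMT1-AID on day 8, 400, 345 and 361 CPM in UHRF1-AID and 372, 435 and 442 CPM in DNMT1-AID, against 517, 479 and 505 CPM in WT. No degron library reached WT, and UHRF1-AID/DNMT1-AID did not overlap UHRF1-AID. Against WT the log2 fold change was -0.67 ± 0.082 in UHRF1-AID/DNMT1-AID (edgeR adjusted p = 8.39e-09), -0.44 in UHRF1-AID (adjusted p = 4.01e-05) and -0.26 in DNMT1-AID (adjusted p = 0.00765). These sizes leaned on the processing: with the correction for GC content and length they were -0.21 (adjusted p = 0.0165), -0.25 (adjusted p = 0.008) and 0.00 (adjusted p = 0.971). The call in DNMT1-AID was also lost without its day 8 replicate 1 (-0.19, adjusted p = 0.074).

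On earlier days HMGB1 moved little against WT. It was lower in UHRF1-AID/DNMT1-AID on day 2 (647, 674 and 671 CPM, against 746, 849 and 734 CPM in WT, log2 fold change -0.23, edgeR adjusted p = 0.035) and on day 6 (340, 315 and 327 CPM, against 430, 422 and 411 CPM in WT, -0.36, adjusted p = 0.000529), and in UHRF1-AID on day 6 (-0.27, adjusted p = 0.0129). All 3 of these calls were lost with the GC and length correction, at adjusted p of 0.196, 0.103 and 0.114 in that order. The call on day 2 was also lost without any 1 of the 3 UHRF1-AID/DNMT1-AID libraries or WT replicate 2 (adjusted p 0.0651 to 0.195), and that in UHRF1-AID without its day 6 replicate 2 (adjusted p = 0.125) or WT day 6 replicate 1 (adjusted p = 0.0535). HMGB1 is also uncertain as a target of counting, since 48 pseudogenes named after it took reads equal to 24.2 to 35.9% of its own. That share on day 8 was 28% in UHRF1-AID/DNMT1-AID and 26.4% in WT on average, and adding those reads to the gene changed none of its calls against WT.

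HMGB2, a cell cycle-linked HMG-box protein, had 121, 93.6 and 117 CPM in UHRF1-AID/DNMT1-AID on day 8, 150, 99.5 and 111 CPM in UHRF1-AID and 126, 150 and 140 CPM in DNMT1-AID, against 210, 188 and 195 CPM in WT. The degron lines overlapped one another, apart from UHRF1-AID/DNMT1-AID and DNMT1-AID, and all lay below WT. On the log2 scale the change over WT was -0.84 ± 0.11 in UHRF1-AID/DNMT1-AID (edgeR adjusted p = 3.55e-08), -0.72 in UHRF1-AID and -0.51 in DNMT1-AID. On day 2 it was lower in UHRF1-AID/DNMT1-AID (167, 171 and 169 CPM, against 218, 241 and 215 CPM in WT, log2 fold change -0.41, edgeR adjusted p = 0.00508). On day 6 it passed in none of the 3 lines (log2 fold changes of -0.15, -0.14 and 0.00).

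HMGA1, an abundant AT-hook protein, fell further in the lines with tagged UHRF1 than in DNMT1-AID. It had 875, 858 and 1180 CPM in UHRF1-AID/DNMT1-AID on day 8, 1240, 1170 and 931 CPM in UHRF1-AID and 1730, 2020 and 1780 CPM in DNMT1-AID, against 2380, 2680 and 2620 CPM in WT. The first 2 lines overlapped, DNMT1-AID stood between them and WT, and no line overlapped WT. The log2 fold change over WT was -1.40 ± 0.14 in UHRF1-AID/DNMT1-AID (edgeR adjusted p = 1.9e-10), -1.21 in UHRF1-AID (adjusted p = 1.83e-08) and -0.47 in DNMT1-AID (adjusted p = 0.00536). The correction for GC content and length gave -2.02 for UHRF1-AID/DNMT1-AID.

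On day 6 DNMT1-AID again stood between WT and the lines with tagged UHRF1. HMGA1 had 892, 903 and 1170 CPM in UHRF1-AID/DNMT1-AID, 956, 819 and 813 CPM in UHRF1-AID and 1340, 1770 and 1420 CPM in DNMT1-AID, against 1890, 2010 and 1910 CPM in WT. It fell in UHRF1-AID/DNMT1-AID (log2 fold change -0.97, edgeR adjusted p = 1.03e-06) and UHRF1-AID (-1.17, adjusted p = 8.43e-08), and DNMT1-AID lay below WT without passing (-0.36, adjusted p = 0.0807). The fall in DNMT1-AID did pass with the correction for GC content and length (-0.57, edgeR adjusted p = 0.00433). It also passed with only the libraries compared (adjusted p = 0.0224) and with library size only (adjusted p = 0.0365). On day 2 it fell in UHRF1-AID (2220, 1850 and 1730 CPM, against 2780, 2550 and 2830 CPM in WT, log2 fold change -0.49, edgeR adjusted p = 0.00729). In UHRF1-AID/DNMT1-AID on day 2 HMGA1 had 2120, 2170 and 2210 CPM and did not pass (-0.33, edgeR adjusted p = 0.0726), but it passed with the correction for GC content and length (-0.53, adjusted p = 0.00347), with only the libraries compared (adjusted p = 0.00261) and with library size only (adjusted p = 0.00856). In DNMT1-AID on day 2 it had 2640, 3950 and 2780 CPM, 1 library of which stood well above the others.

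HMGA2, the AT-hook protein of embryonic and many tumour cells, had the largest log2 fold change of the 10 genes against WT in each degron line on days 6 and 8, but not in the single lines on day 8 with the correction for GC content and length. There HMGA1 had -1.53 and HMGA2 -1.30 in UHRF1-AID, and LMNB1 had -1.01, HMGA1 -0.94 and HMGA2 -0.87 in DNMT1-AID. It had 28.9, 21.6 and 27.3 CPM in UHRF1-AID/DNMT1-AID on day 8, 76.7, 34.1 and 47.8 CPM in UHRF1-AID and 66.4, 69.7 and 59.7 CPM in DNMT1-AID, against 149, 145 and 152 CPM in WT. No degron library came near WT, and the double degron line lay below both single lines. The log2 fold change over WT was -2.52 ± 0.28 in UHRF1-AID/DNMT1-AID (edgeR adjusted p = 1.33e-08), -1.49 in UHRF1-AID (adjusted p = 5.29e-05) and -1.19 in DNMT1-AID (adjusted p = 0.000579). In the double degron line the fitted level fell by 82.6%.

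HMGA2 also moved early in the double degron line. On day 2 UHRF1-AID/DNMT1-AID had 67.2, 68.5 and 48.3 CPM, against 153, 153 and 163 CPM in WT (log2 fold change -1.35, edgeR adjusted p = 0.000423), while UHRF1-AID (144, 100 and 135 CPM) and DNMT1-AID (138, 161 and 111 CPM) did not pass. On day 6 UHRF1-AID/DNMT1-AID had 35.5, 38.4 and 39.1 CPM, UHRF1-AID 100, 34 and 56.5 CPM and DNMT1-AID 93.5, 83.9 and 75.3 CPM, against 173, 158 and 171 CPM in WT. All 3 lines passed on day 6, at log2 fold changes of -2.15, -1.40 and -0.99 (edgeR adjusted p = 5.07e-07, 0.00025 and 0.0113). The 3 UHRF1-AID libraries of day 6 varied widely, with a coefficient of variation of 53%, and that call was lost when the libraries of these groups were fitted alone (adjusted p = 0.0602). The DNMT1-AID call was lost without its day 6 replicate 3 (adjusted p = 0.059).

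The let-7 family and its sites in HMGA2 are shown because LIN28B, which blocks the maturation of let-7 microRNAs, was on a list of genes linked to HMGA2. The seed (bases 2 to 8, capitals) is shared by 9 family members in RefSeq, of which 1 is printed.
hsa-let-7a-5p: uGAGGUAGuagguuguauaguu
The HMGA2 3′UTR of 2999 bases held 4 matches to the complement of the seed (CTACCTC, capitals), at chr12:65963299-65963320, chr12:65964534-65964555, chr12:65964946-65964967 and chr12:65965799-65965820 on GRCh38, plus strand.
site 1: ccaacgttcgatttCTACCTCa
site 2: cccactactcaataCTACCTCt
site 3: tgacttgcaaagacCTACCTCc
site 4: atcaaaacacactaCTACCTCt
At least 1 such match was present in 9.76% of 19550 3′UTRs, and 4 or more in 12 of them (0.0614%). LBR and HMGA1 held 1 match each and the other 7 genes 0. A match is a description of the sequence, and let-7 itself was not measured in these libraries of polyadenylated RNA.

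LIN28B was almost silent in WT and was read in the degron lines, in particular in UHRF1-AID/DNMT1-AID. Summed over 3 libraries, UHRF1-AID/DNMT1-AID had 59, 285 and 196 reads on days 2, 6 and 8, UHRF1-AID 15, 37 and 45 reads, DNMT1-AID 3, 32 and 23 reads, and WT 3, 3 and 0 reads. On day 8 this was at least 71-fold higher in UHRF1-AID/DNMT1-AID, at least 12.5-fold higher in UHRF1-AID and at least 7.31-fold higher in DNMT1-AID than in WT, where the 0 reads of WT were replaced by a floor of 3 reads for the group. The level stayed low, at 2.89 ± 0.249 CPM in UHRF1-AID/DNMT1-AID on day 8. LIN28B thus rose while HMGA2 fell in the same line. LIN28A had at most 6 reads in any group.

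**Figure D3:**
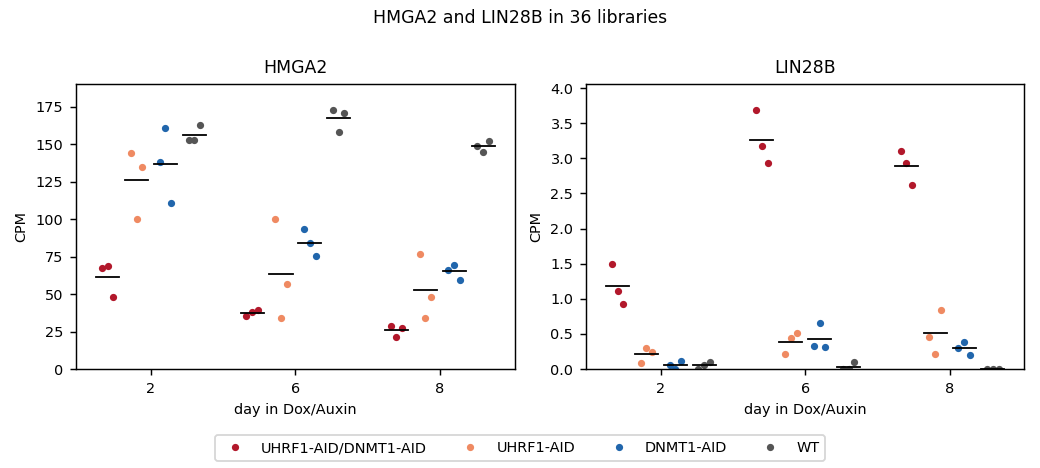
HMGA2 (left) and LIN28B (right) in CPM (y axes) against day in Dox/Auxin (x axis). Points are libraries coloured by line and bars are means of 3. On day 8 the 3 UHRF1-AID/DNMT1-AID libraries are the lowest for HMGA2 (21.6 to 28.9 CPM) and the highest for LIN28B (2.62 to 3.11 CPM).

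The degron lines were then compared with each other on the same day. UHRF1-AID/DNMT1-AID was lower than UHRF1-AID for 2 genes on day 2 (background 5.6% of all genes lower), 0 on day 6 (5.39%) and 6 on day 8 (23.5%). It was lower than DNMT1-AID for 3 genes on day 2 (4.72%), 7 on day 6 (13%) and 8 on day 8 (24%). UHRF1-AID was lower than DNMT1-AID for 1 gene on day 2 (12.7%), 1 on day 6 (5.1%) and 2 on day 8 (8.24%). None of the 10 genes was higher in the first-named line of any of these 9 comparisons in edgeR with its TMM scaling. On day 2 EMD was higher in UHRF1-AID/DNMT1-AID than in UHRF1-AID with DESeq2 (0.24, adjusted p = 0.0212), with its size factors in edgeR and without UHRF1-AID day 6 replicate 2, and LMNB2 rose in UHRF1-AID over DNMT1-AID with the correction for GC content and length (0.36, edgeR adjusted p = 0.00392). For the 0 on day 6, 4 of the 10 genes, all lower, passed at an unadjusted p under 0.05 in edgeR, and DESeq2 gave 0 as well. The share of all genes at that unadjusted threshold was not counted.

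On day 8 HMGA2, TMPO and LMNB1 were among the genes lower in the double than in each single degron line. Against DNMT1-AID, the log2 fold change in UHRF1-AID/DNMT1-AID was -1.34 for HMGA2, -0.94 for LMNB1, -0.93 for HMGA1 and -0.91 for TMPO, and against UHRF1-AID it was -1.03 for HMGA2, -0.996 for TMPO and -0.91 for LMNB1. The correction for GC content and length changed the order against UHRF1-AID, with -0.88 for LMNB1 and -0.75 for HMGA2. Between the single lines only HMGA1 (log2 fold change -0.73 in UHRF1-AID over DNMT1-AID) and LMNA (-0.27) passed on day 8. HMGA1 was the 1 gene that passed between the single lines on all 3 days, at -0.69 on day 2 and -0.81 on day 6. Between UHRF1-AID/DNMT1-AID and UHRF1-AID, HMGA1 did not pass on any day, but on day 8 it passed with the correction for GC content and length (-0.49, edgeR adjusted p = 0.00523) and without UHRF1-AID/DNMT1-AID day 8 replicate 3 (-0.36, adjusted p = 0.0447). The HMGA2 difference between those lines was lost without UHRF1-AID day 8 replicate 1 (-0.66, edgeR adjusted p = 0.054), and the LMNA difference between the single lines without any 1 of 5 day 8 libraries (adjusted p up to 0.185). The count of 7 against DNMT1-AID on day 6 was 4 with DESeq2 and fell to as few as 3 without 1 library, and it moved by over 1.5 times without replicate 1 or 2 of either line on that day.

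Whether the difference from WT grew with time was asked by the change between day 2 and day 8 in a degron line beyond that in WT. In UHRF1-AID/DNMT1-AID it passed as lower for 8 of the 10 genes (background 22.6% lower), in UHRF1-AID for 8 (7.09%) and in DNMT1-AID for 3 (9.28%). In DNMT1-AID 6 of the 10 genes lay lower at an unadjusted p under 0.05 in edgeR, a threshold at which the share of all genes was not counted. In UHRF1-AID/DNMT1-AID the largest were TMPO at -1.30 ± 0.135 (edgeR adjusted p = 5.46e-09), LBR at -1.29 ± 0.137 (adjusted p = 7.35e-09) and HMGA2 at -1.17 ± 0.374 (adjusted p = 0.015). In UHRF1-AID they were HMGA2 at -1.18, LBR at -0.79 and HMGA1 at -0.71. In DNMT1-AID the largest that passed were TMPO at -0.74, LBR at -0.68 and HMGA1 at -0.67. HMGA2 in DNMT1-AID was larger, at -0.99, but did not pass in edgeR. It passed in 7 of 45 other settings, among them DESeq2 (-0.97, adjusted p = 0.0426) and only the libraries compared in edgeR (-0.98, adjusted p = 0.000113). It did not pass with the correction for GC content and length (-0.72, edgeR adjusted p = 0.193). With the correction for GC content and length UHRF1-AID/DNMT1-AID had HMGA1 at -1.49 and LMNB2 at -1.15 as the largest, and the calls of HMGA2 (-0.82, adjusted p = 0.0745), HMGB1 (-0.08, adjusted p = 0.632) and HMGB2 (-0.19, adjusted p = 0.385) were lost. LBR, TMPO and HMGA1 passed in all 3 lines, and LMNA and EMD passed in none, although the HMGA1 call in DNMT1-AID was lost without DNMT1-AID day 2 replicate 2 (-0.46, adjusted p = 0.0897). The TMPO call in UHRF1-AID was lost with the correction (-0.32, edgeR adjusted p = 0.0745) and without UHRF1-AID day 8 replicate 2, WT day 2 replicate 3 or WT day 8 replicate 1 (adjusted p 0.0559 to 0.0747), and EMD in UHRF1-AID/DNMT1-AID passed with the correction (-0.54, adjusted p = 0.000881). The count in UHRF1-AID was 3 without its day 8 replicate 2, and 5 without its day 8 replicate 3, WT day 2 replicate 3 or WT day 8 replicate 1.

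WT itself changed with time. WT had 4 genes higher and 5 lower on day 6 than on day 2 (background 35.7% higher, 32.1% lower), 4 higher and 3 lower on day 8 than on day 2 (30.1% and 29.7%), and 3 higher and 0 lower on day 8 than on day 6 (17.6% higher). In WT on day 8 over day 2, LMNB1 rose by 0.80 on the log2 scale, LMNB2 by 0.92 and TMPO by 0.47, while HMGB1 fell by 0.63, LBR by 0.61 and EMD by 0.30. The scale matters here: with library size alone as the scaling, the median of all genes moves by 0.29 for day 6 against day 2 and by 0.17 for day 8 against day 2. LMNA was higher in WT on day 6 (0.40) and day 8 (0.49) than on day 2, but turned lower with the GC and length correction (-0.49 and -0.23). HMGB2 was lower on day 6 than on day 2 (-0.25, edgeR adjusted p = 0.0415), and the correction turned it higher (0.66), as did scaling by library size alone (0.04, adjusted p = 0.774). The rise of LMNB2 shrank to 0.30 on day 6 and 0.25 on day 8 with the correction. The proliferation marker MKI67 was at 17.1 CPM in WT on day 2, 375 CPM on day 6 and 144 CPM on day 8. The sum of 20 proliferation genes that include MKI67 did not follow it. That sum in WT was 3170 to 3340 CPM on day 2, 2630 to 2790 CPM on day 6 and 3030 to 3150 CPM on day 8. What else differed between the days of sampling cannot be told apart from time in Dox/Auxin.

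Genes of related function were counted from 10 lists, in UHRF1-AID/DNMT1-AID against WT on day 8, where 32.8% of all genes tested were lower and 35.7% higher. Of 30 nuclear pore genes, 26 fell and 1 rose, with NDC1 at -1.60, NUP133 at -1.57 and NUP205 at -1.53 (log2 fold change, median of the list -0.78, of all genes 0.03). Of 22 other nuclear envelope genes, 6 fell and 8 rose, with NEMP1 at -1.14, LEMD3 at -0.98 and SYNE4 at 0.85 (median 0.00). The enzymes that process lamins had 3 of 5 lower, namely ZMPSTE24 (-0.56), the protease that matures prelamin A, FNTB (-0.43), a farnesyltransferase subunit, and ICMT (-0.40), a carboxyl methyltransferase. The counts of the nuclear envelope list lay near the background in both directions.

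Lists of chromatin genes outside the 10 are read against the same background. Of 14 other HMG genes tested, 10 fell and 1 rose, with HMGXB4 at -1.18, SSRP1 at -1.13 and TFAM at -0.84 (median -0.41). Of 13 genes of heterochromatin foci, 9 fell and 0 rose, with the H3K9 methyltransferases SUV39H1 at -1.60 and SUV39H2 at -1.10 and the HP1 gene CBX5 at -1.50. Of 7 genes tested on the LIN28 list, 1 rose (LIN28B) and 3 fell, among them TUT4 at -1.05 and IGF2BP3 at -0.79, a count of lower genes near the background. Of 7 cyclin-dependent kinase inhibitors 3 rose and 2 fell, with CDKN1C at 2.22, CDKN2C at -1.17 and CDKN1B at -0.73, again near the background. CDKN2A, the p16 and ARF locus, rose by 0.44, and CDKN1A, which codes for p21, did not pass (269 ± 35.6 CPM in UHRF1-AID/DNMT1-AID, 275 ± 8.08 CPM in WT). On day 2 mean CDKN1A was 345, 363 and 382 CPM in UHRF1-AID/DNMT1-AID, UHRF1-AID and DNMT1-AID, against 302 CPM in WT. On day 6 it was 324, 262 and 347 CPM in that order, against 238 CPM in WT. These earlier levels are given without a test. The study reports higher CDKN1A in every degron line at some time points, by RNA-seq and RT-qPCR. For the protein, which was not measured here, it reports more p21 in the degron lines on day 8.

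Marker lists moved as well. Of 9 epithelial markers 5 rose and 1 fell, with CDX2 at 2.21 and KRT18 at 1.37, and CDX1 rising to at most 3.47 CPM. Of the markers of other cell types, COL1A1, PTPRC, CD14 and PECAM1 rose and 0 fell, with PTPRC, CD14 and PECAM1 staying under 3 CPM in every library. The summed level of the 12 markers was 51.5 to 64.2 CPM in UHRF1-AID/DNMT1-AID, 47.9 to 50.8 CPM in UHRF1-AID and 36.5 to 42 CPM in DNMT1-AID, against 31.5 to 36.1 CPM in WT. Their part in the differences of the 10 genes was not tested.

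The single lines were counted likewise on day 8. In UHRF1-AID, where 21% of all genes were lower and 24.2% higher, 25 of 30 nuclear pore genes fell and 1 rose, 7 of 14 other HMG genes fell and 0 rose, and 5 of 13 genes of heterochromatin foci fell and 0 rose. In DNMT1-AID, where 22.4% were lower and 25.1% higher, 23 of the 30 nuclear pore genes fell and 1 rose, 7 of the 14 other HMG genes fell and 1 rose, and 8 of the 13 genes of heterochromatin foci fell and 0 rose. Whether the lines differ in these counts was not tested.

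Proliferation genes fell with the lamina and HMG genes. All 20 genes of the list (cyclins, replication and mitotic genes) were lower in UHRF1-AID/DNMT1-AID on day 8, with MCM2 at -2.02, RRM2 at -2.01 and CCNA2 at -1.99 (median -1.37), 20 were lower in UHRF1-AID and 19 in DNMT1-AID. Their summed level was 1070 to 1370 CPM in UHRF1-AID/DNMT1-AID on day 8, 1610 to 2090 CPM in UHRF1-AID and 1930 to 1940 CPM in DNMT1-AID, against 3030 to 3150 CPM in WT. On day 2, 18 fell in UHRF1-AID/DNMT1-AID (background 11.5% lower), 18 in UHRF1-AID (14.4%) and 4 in DNMT1-AID (0.714%). On day 6 the list was mixed. UHRF1-AID/DNMT1-AID had 6 higher and 8 lower (background 19% higher, 21.9% lower). UHRF1-AID had 3 higher and 8 lower (14.3% and 10.5%), and DNMT1-AID had 5 higher and 1 lower (8.84% and 4.35%).

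**Figure D4:**
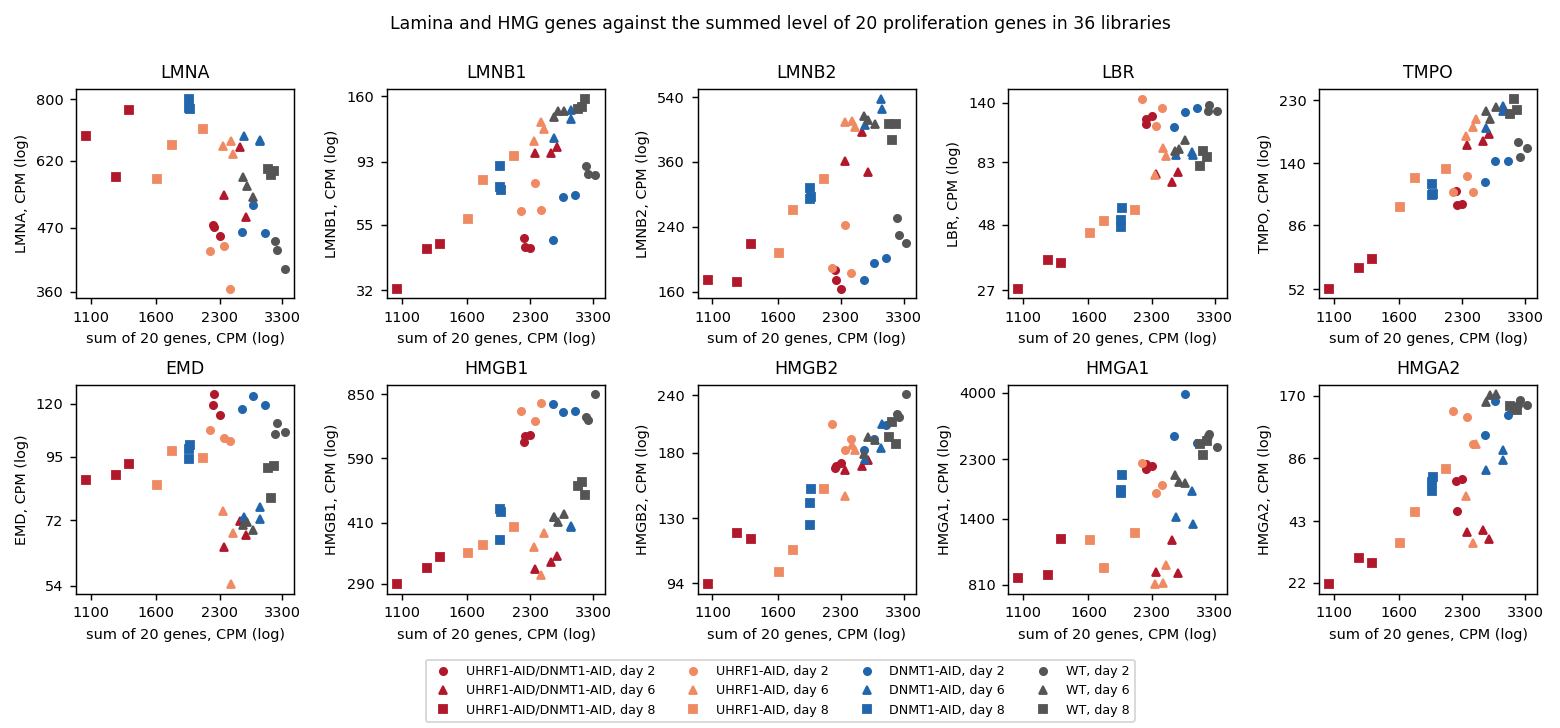
Level of each gene (CPM, log y axis) against the summed level of 20 proliferation genes (CPM, log x axis) in the 36 libraries, coloured by line and shaped by day (circles day 2, triangles day 6, squares day 8). On day 8 LMNB1, LBR, TMPO and HMGA2 rise along the sum from UHRF1-AID/DNMT1-AID (1070 to 1370 CPM in the sum) to WT (3030 to 3150 CPM), and LMNA and EMD do not.

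Over the 12 libraries of day 8, Pearson's r of log2 CPM with the mean of the proliferation genes was 0.989 for LBR, 0.987 for HMGA2, 0.986 for LMNB1, 0.983 for TMPO, 0.975 for LMNB2, 0.956 for HMGB1, 0.919 for HMGB2 and 0.896 for HMGA1, but -0.28 for LMNA and -0.03 for EMD. On day 6 it lay between 0.05 for LMNA and 0.71 for HMGB2. On day 2 it was 0.251 for LBR and 0.489 for HMGB1, with a range over the 10 genes of -0.123 for EMD to 0.934 for TMPO, and over all 36 libraries it was 0.322 for HMGB1, 0.46 for HMGA1, 0.689 for LBR and 0.925 for TMPO. These libraries share the line and its treatment, so the values describe 4 lines more than 12 points, and a part of proliferation in the fall of any gene was not tested.

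Across all 12 groups the 10 genes differed in range and in precision. Group means of HMGA2 spanned 25.9 to 167 CPM (6.45-fold), LBR 32.3 to 132 CPM (4.09-fold), TMPO 59.8 to 218 CPM (3.65-fold), HMGA1 863 to 3120 CPM (3.62-fold) and LMNB1 41.6 to 149 CPM (3.58-fold). LMNB2 spanned 173 to 496 CPM (2.87-fold), HMGB1 314 to 781 CPM (2.49-fold), HMGB2 110 to 225 CPM (2.05-fold), LMNA 409 to 780 CPM (1.91-fold) and EMD 65.8 to 120 CPM (1.82-fold). The median coefficient of variation within a group was 3.32% for EMD and 12.8% for HMGA2, the extremes of the 10. Per kilobase of exon, HMGA1 was the highest of the 10 genes (371 to 1340 CPM per kb) and HMGA2 the lowest (1.72 to 11.1 CPM per kb).

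Among themselves, over the 36 libraries, LMNB1 was most like LMNB2 (r = 0.93) and TMPO (r = 0.93), HMGB2 like LBR (r = 0.88) and HMGB1 like HMGA1 (r = 0.82), whereas LMNA ran against LBR (r = -0.75) and HMGB1 (r = -0.79). Over all genes tested, the closest 3 to LMNB1 were DONSON (r = 0.965), SUPT16H (r = 0.964) and EPRS1 (r = 0.949), those to LMNB2 SNRNP200, HNRNPM (r = 0.969 each) and SAPCD2 (r = 0.967), and those to LMNA PLCD3 (r = 0.958), PIK3R2 and ENSG00000285304 (r = 0.937 each). The closest to LBR were ENSG00000283761 (r = 0.974), IARS2 (r = 0.973) and UTP23 (r = 0.972), those to TMPO ATAD2 (r = 0.979), SMARCC1 (r = 0.973) and BUB1B (r = 0.967), and those to EMD RPL10 (r = 0.971), RBM14-RBM4 (r = 0.97) and C12orf57 (r = 0.969). The closest to HMGB1 were PLRG1, YWHAZ (r = 0.982 each) and STRAP (r = 0.981), those to HMGB2 CCNA2 (r = 0.936), BORA (r = 0.932) and NEDD1 (r = 0.924), those to HMGA1 included GCAT (r = 0.941) and ERRFI1 (r = 0.93), and those to HMGA2 NT5E (r = 0.969), FEM1C (r = 0.956) and SLC16A9 (r = 0.949). These correlations share library, line and day and are given as descriptions.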

How the data were processed

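RNA-seq counts per gene were analysed for 36 HCT116 libraries. Per the labels and the submitters' processing notes, the authors extracted polyadenylated RNA, made libraries with a NEB Next Ultra kit, aligned reads to hg38 with STAR and counted them per gene with featureCounts, and the deposited values are raw read counts, not normalised. Versions of these tools are given in the study's methods, while the strand and multimapping settings of the gene counting are not given in the sources used here. The 10 genes and the 10 gene lists were chosen with earlier results of these data known.

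Of 60648 identifiers, 60462 were matched to GENCODE release 44 and 19942 were protein-coding. The 15415 protein-coding genes kept by filterByExpr (minimum count 10) were fitted in edgeR 4.0.16 (R 4.3.3, limma 3.58.1) with TMM scaling and robust quasi-likelihood, 1 mean for each of 12 groups and 24 residual degrees of freedom (common dispersion 0.0115). The tests were two-sided, with Benjamini-Hochberg adjustment within each of 24 comparisons: 9 of degron lines against WT, 9 between degron lines, 3 between WT days and 3 of the change between day 2 and day 8 beyond WT. A standard error is the absolute log2 fold change divided by the root of F. The study used DESeq2, which served here as an alternative (version 1.42.0) with others named in the closing section. The fit was tested on simulated data. No pair of libraries was identical, and every replicate pair differed by more than sampling noise (chi-square per degree of freedom 3.59 to 54). The text names all 10 genes, UHRF1 and DNMT1, the 3 genes closest to each in Pearson's r, and up to 3 members of each list with the largest change in UHRF1-AID/DNMT1-AID on day 8. CDKN2A, CDKN1A, MKI67, LIN28A, TMPO-AS1 and further markers were named after their values were seen. Some items that these rules would name are not reported here.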

Additional observations from a re-analysis of the deposited data

Results flagged for a closer look

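Differences between degron lines that passed their own test are collected here, as log2 fold changes from edgeR at an adjusted p under 0.05. They share libraries within a day, and no explanation for them was tested.

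For UHRF1-AID/DNMT1-AID over UHRF1-AID, the values on day 2 were -0.52 for LMNB1 and -1.04 for HMGA2. On day 8 they were -0.91 for LMNB1, -0.51 for LMNB2, -0.62 for LBR, -0.996 for TMPO, -0.23 for HMGB1 and -1.03 for HMGA2.

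For UHRF1-AID/DNMT1-AID over DNMT1-AID, the values on day 2 were -0.35 for TMPO, -0.53 for HMGA1 and -1.15 for HMGA2. On day 6 they were -0.27 for LMNA, -0.39 for LMNB2, -0.28 for LBR, -0.28 for TMPO, -0.32 for HMGB1, -0.61 for HMGA1 and -1.16 for HMGA2. On day 8 they were -0.94 for LMNB1, -0.66 for LMNB2, -0.66 for LBR, -0.91 for TMPO, -0.41 for HMGB1, -0.33 for HMGB2, -0.93 for HMGA1 and -1.34 for HMGA2.

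For UHRF1-AID over DNMT1-AID, HMGA1 had -0.69 on day 2, -0.81 on day 6 and -0.73 on day 8, and LMNA had -0.27 on day 8.

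The change between day 2 and day 8 in a degron line differed from that in WT for these genes. In UHRF1-AID/DNMT1-AID the excess over WT was -0.98 for LMNB1, -0.82 for LMNB2, -1.29 for LBR, -1.30 for TMPO, -0.44 for HMGB1, -0.43 for HMGB2, -1.07 for HMGA1 and -1.17 for HMGA2, of which HMGB1 (-0.08), HMGB2 (-0.19) and HMGA2 (-0.82) no longer passed with a correction for GC content and length. In UHRF1-AID it was -0.58 for LMNB1, -0.54 for LMNB2, -0.79 for LBR, -0.45 for TMPO, -0.43 for HMGB1, -0.51 for HMGB2, -0.71 for HMGA1 and -1.18 for HMGA2, of which TMPO (-0.32) and HMGB2 (-0.29) no longer passed with it. With only the libraries compared, LMNB1, LMNB2 and HMGB2 lost their calls (edgeR adjusted p = 0.0787, 0.108 and 0.0583). LMNB1 was also lost with DESeq2 size factors, all annotated genes or no filter on low counts in edgeR (adjusted p = 0.0684, 0.0506 and 0.0541). Without UHRF1-AID day 8 replicate 2, LMNB1, LMNB2, TMPO, HMGB2 and HMGA2 did not pass (edgeR adjusted p 0.0747 to 0.139). In DNMT1-AID it was -0.68 for LBR, -0.74 for TMPO and -0.67 for HMGA1.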

How the results depend on the processing

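Each of the 240 results (10 genes in 24 comparisons) was recomputed under 9 other settings, of which the addition of pseudogene reads was chosen after seeing the data. The side of the threshold, and the direction where a gene passed in either fit, were kept by 239 results without the filter on low counts, 239 with pseudogene reads added, 237 with all annotated genes, 235 with the replicate block, 229 with DESeq2 size factors in edgeR, 225 with DESeq2, 219 with only the libraries compared, 215 with scaling by library size only and 197 with the correction for GC content and length. In 8640 refits without 1 library, 8488 were kept, 98 lost the call, 54 gained one and 0 that passed in either fit changed direction, while 105 that passed in neither changed sign. The replicate numbers do not pair the libraries (same-numbered deviations correlated at -0.06 to 0.09, and 10 of 27 libraries correlated best with their own number), so the replicate block is given only here.

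The correction for GC content and length turned round 10 results that passed in either fit, and changed the sign of 29 that passed in neither. EMD became -0.61 in UHRF1-AID/DNMT1-AID, -0.25 in UHRF1-AID and -0.32 in DNMT1-AID against WT on day 8. HMGB1 became 0.0049 in DNMT1-AID against WT and 0.039 in UHRF1-AID/DNMT1-AID against UHRF1-AID on day 8. LMNA became 0.26 in UHRF1-AID against WT on day 2, and in WT -0.49 on day 6 and -0.23 on day 8, each against day 2. HMGB2 in WT became 0.66 on day 6 and 0.52 on day 8 against day 2, and 0.042 on day 6 with library size only. The cause was not tested.

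Counts of genes passing moved as follows, by setting. With DESeq2 there were 1 for DNMT1-AID against WT on day 2 (0 in edgeR), 3 for UHRF1-AID against DNMT1-AID (1) on day 2, 2 on day 6 (1), and 5 for UHRF1-AID/DNMT1-AID against DNMT1-AID on day 2 (3) and 4 on day 6 (7). DESeq2 size factors gave 3 between the single lines on day 2 and 1 on day 8 (2), and 4 for UHRF1-AID/DNMT1-AID against DNMT1-AID on day 6. The GC and length correction gave 5 for UHRF1-AID against WT on day 2 (2). Between the single lines it gave 2, both on day 2 and on day 6. With the replicate block there were 2 between the single lines on day 2 and 5 for UHRF1-AID/DNMT1-AID against DNMT1-AID on day 2. With only the libraries compared there were 2 for DNMT1-AID against WT (day 2), 1 between the single lines on day 8, 5 for WT on day 8 against day 6 (3), and 5 each for the day 8 change beyond WT in DNMT1-AID (3) and UHRF1-AID (8). Library size only gave 2 for DNMT1-AID against WT on day 2, 1 between the single lines on day 8, 3 for UHRF1-AID/DNMT1-AID against DNMT1-AID on day 6, 6 against UHRF1-AID on day 2 (2), and 0 for WT on day 8 against day 6.

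Without 1 library, counts ranged over 0 to 1 for DNMT1-AID against WT on day 2 (1 without UHRF1-AID day 8 replicate 2) and 0 to 3 on day 6 (moved by any WT library of that day or DNMT1-AID replicate 1 or 3), 2 to 4 for UHRF1-AID against WT on day 2 (4 without its replicate 3), and 3 to 8 for the day 8 change beyond WT in UHRF1-AID. UHRF1-AID against DNMT1-AID ranged over 1 to 2 on day 2, 1 to 3 on day 6 and 1 to 3 on day 8. UHRF1-AID/DNMT1-AID against DNMT1-AID ranged over 1 to 4 on day 2 (1 without DNMT1-AID day 2 replicate 2) and 3 to 8 on day 6, and against UHRF1-AID over 2 to 4 on day 2 and 0 to 1 on day 6. WT on day 8 against day 6 ranged over 1 to 3 (1 without WT day 6 replicate 3). The counts against WT on day 8 ranged over 8 to 9 in UHRF1-AID/DNMT1-AID, 8 in every refit of UHRF1-AID and 8 to 10 in DNMT1-AID. Levels in CPM moved by over 1 SD in 70 of 120 groups with library size only and in 2 with DESeq2 size factors. Every gene had at least 514 reads in each library.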
